A study of Mus musculus with 14 samples.

Results

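The genes described here are a list of 40 genes of the fibroblasts of the meninges and of the perivascular space, read in RNA-seq libraries of cells sorted from the postnatal mouse brain. Members were taken by symbol, and all 40 were present with a mean above 0 among the 18355 genes of the table of normalised read counts. The rule used no difference between groups, but the list was chosen with earlier results of these data known. Shares of members called are thus those of a chosen list, not of an unselected one. By role they are 5 fibrillar collagens, 5 other collagens, 4 leucine-rich repeat matrix proteins, 6 other matrix genes, 5 elastic fibre and fibulin genes, 4 genes of the insulin-like growth factor axis, 1 complement regulator, 3 transporters, 2 retinoid genes and 5 transcription factors.

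Brain fibroblasts lie in the pia, arachnoid and dura and along the larger vessels, where they lay down the collagen-rich matrix of those borders and, in development, secrete retinoic acid and growth factors that reach the underlying brain. They carry the platelet-derived growth factor receptor alpha, which is encoded by Pdgfra and is also the surface antigen of oligodendrocyte precursor cells (OPCs). An antibody to that receptor, CD140a, is the one on the OPC beads, whereas O4 antibody binds sulfatide-type lipids of the later, committed oligodendrocyte.

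The study asked how loss of the lysolipid transporter gene Mfsd2a in the oligodendrocyte lineage alters these cells. Brains of mice at postnatal day 8 were dissociated with papain, cells were collected on CD140a beads (OPC) or on O4 beads (O4), and 900 ng of total RNA from each sample went into 1 library. The 4 groups were 2aOKO O4 (n = 4), 2afl/fl O4 (n = 3), 2aOKO OPC (n = 4) and 2afl/fl OPC (n = 3). Both genotypes carried the floxed Mfsd2a allele, and 2aOKO mice also carried a Cre transgene driven by Pdgfra, a gene that fibroblasts express as well. No group was sorted for fibroblasts, so each value is a level in a mixed cell suspension, and fewer cells of a type and less RNA per cell cannot be told apart in it.

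Library totals lay between 34120823 and 41030171 normalised reads. All 20 markers of committed oligodendrocytes were higher in O4 libraries of both genotypes, 1 of the 2afl/fl O4 libraries (library 2) lay between the sorts on the first principal component (13.96 beside 49.0 and 53.0 in the other 2afl/fl O4 libraries), and its oligodendrocyte marker sum was the lowest of any O4 library (508052, others 822924 to 1848562). Mfsd2a, the targeted gene, had 7055, 7188, 3665 and 6843 normalised reads in 2aOKO OPC libraries, against 7585, 7979 and 16343 in 2afl/fl OPC libraries, and 7101, 6536, 3615 and 6596 in 2aOKO O4 libraries, against 6762, 7777 and 12885 in 2afl/fl O4 libraries. The log2 fold change of Mfsd2a, 2aOKO over 2afl/fl, was -0.74 ± 0.32 in OPC and -0.61 ± 0.32 in O4 libraries and neither passed the adjustment over all genes. The groups were apart for Mfsd2a in OPC and overlapped in O4 libraries.

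Fibroblast genes were present in every library, and in both genotypes every member that passed the test was lower in O4 than in OPC libraries. The transporter Slc6a13, the retinoic acid-synthesising enzyme Aldh1a2, the collagens Col1a1 and Col3a1 and the organic anion transporter Slc22a6 were among the 6 steepest differences of both genotypes, with Col13a1 in 2aOKO and Col1a2 in 2afl/fl mice. In 2aOKO mice 21 of 40 members were lower in O4 libraries and 0 were higher, at an adjusted p under 0.05 by limma on log2(value + 1), where 15.5% of all 15565 genes tested were lower and 17.6% higher. In 2afl/fl mice 20 of 40 were lower and 0 were higher, where 12.2% of all genes were lower and 14.3% higher. All 40 members passed the filter on low values, a mean of at least 10, their own lowest mean being 99.0. The median log2 fold change of the members, O4 over OPC, was -0.53 in 2aOKO mice (all genes -0.02) and -0.56 in 2afl/fl mice (all genes -0.01).

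The fold change was below 0 for 36 of 40 members in 2aOKO mice (52.0% of all genes) and 37 of 40 in 2afl/fl mice (51.3% of all genes). All O4 libraries lay below all OPC libraries for 23 of 40 members in 2aOKO mice, where the same held for 19% of genes, and for 20 of 40 in 2afl/fl mice, where it held for 16.5% of genes. O4 and OPC libraries of a genotype with the same number deviated together, and were treated as 7 pairs. In all 7 pairs 25 of 40 members were lower in the O4 library, as were 20.8% of genes, and 0 members were higher in all 7. With the replicate number as a block 30 members were lower in 2aOKO mice, among them all 21 called without it, where 18.5% of all genes were lower in that fit, and 23 in 2afl/fl mice, among them all 20, where 15.4% of all genes were lower. The 9 gained in 2aOKO mice were Bgn, Col12a1, Crabp2, Fbln1, Foxc1, Foxd1, Igfbp2, Nid1 and Postn, and the 3 gained in 2afl/fl mice were Bgn, Col6a2 and Nid1. The difference was smaller without O4 library 3. Without 2aOKO O4 library 3 the members' median was -0.34 with 18 lower in 2aOKO mice (11.7% of all genes in that fit), and without 2afl/fl O4 library 3 it was -0.40 with 15 lower in 2afl/fl mice (8.27% of all genes).

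**Figure D1:**
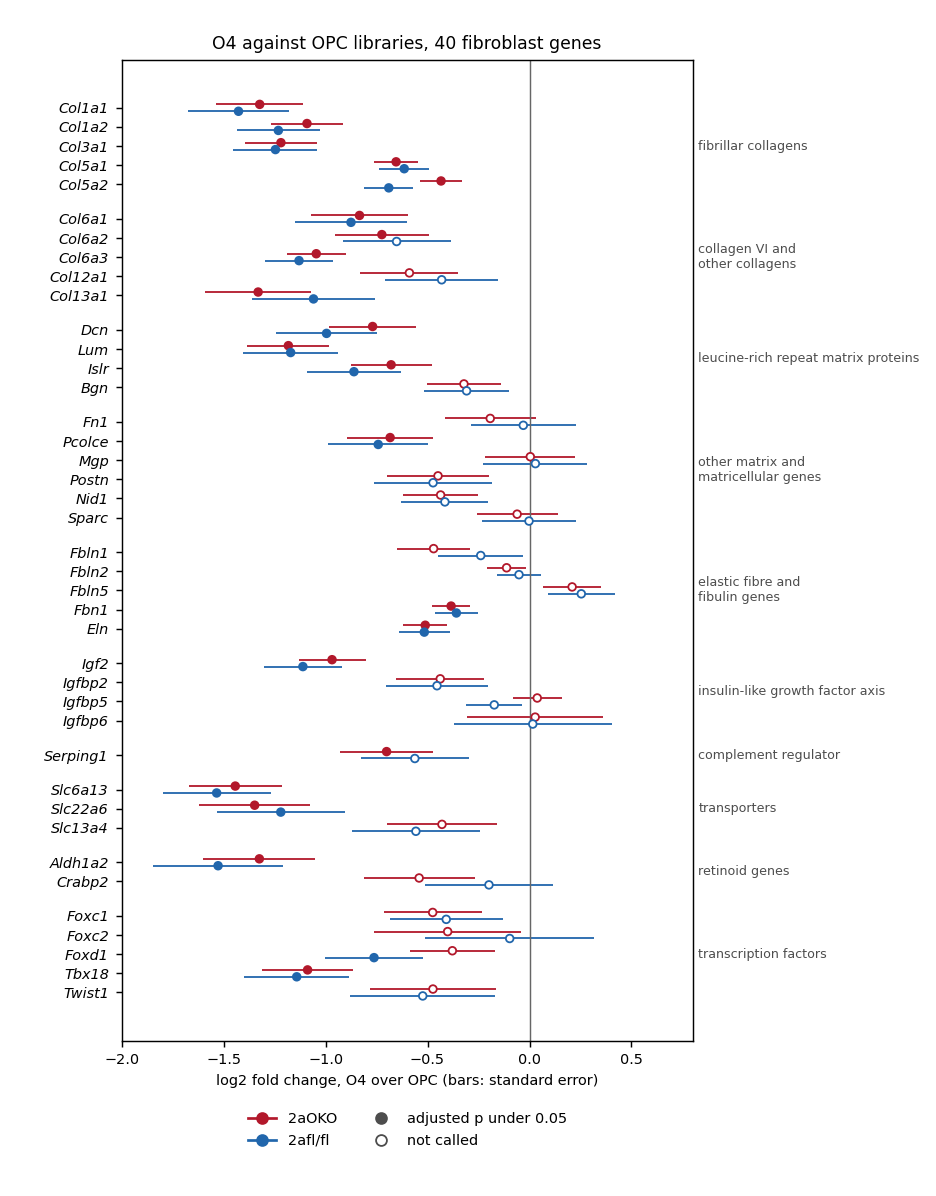
The plot of fold changes by sort gives the log2 fold change of each of the 40 members, O4 over OPC, on the x axis, with its standard error as a bar. Red points are 2aOKO mice and blue points 2afl/fl mice, filled where the adjusted p was under 0.05; all filled points lie left of 0, and Fbln5 lies furthest to the right in both genotypes.

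The fibrillar collagens, whose triple helices form the tensile fibres of connective tissue, were the most uniform group. In both genotypes 5 of 5 members were lower (all genes 15.5% in 2aOKO and 12.2% in 2afl/fl mice), with medians of -1.09 in 2aOKO and -1.23 in 2afl/fl mice. Col1a1 encodes the chain of which type I collagen has 2 copies (chr11:94827050-94843869, mm39). Its normalised read count, here as for every gene in the order of library numbers, was 3855, 3266, 1844 and 3307 in the 2aOKO O4 libraries, against 6424, 6874, 8067 and 8457 in the 2aOKO OPC libraries. In the other genotype it was 4602, 3616 and 2548 in the 2afl/fl O4 libraries, against 8316, 11836 and 8382 in the 2afl/fl OPC libraries. Every O4 library lay below every OPC library, and the log2 fold change of Col1a1 was -1.32 ± 0.21 in 2aOKO mice (limma, adjusted p = 0.000416) and -1.43 ± 0.25 in 2afl/fl mice (adjusted p = 0.00127). Its partner chain Col1a2 (chr6:4505618-4541544), the fibrillar collagen with the highest mean, had 5097, 4323, 2885 and 4794 in the 2aOKO O4 libraries, against 7738, 8240, 9902 and 9952 in the 2aOKO OPC libraries. Col1a2 counts were 5776, 4375 and 3639 in the 2afl/fl O4 libraries, against 9863, 12914 and 9354 in the 2afl/fl OPC libraries. The groups of both genotypes were again apart, with log2 fold changes of -1.09 ± 0.18 in 2aOKO and -1.23 ± 0.20 in 2afl/fl mice. Col3a1, the collagen of reticular fibres (chr1:45350698-45388867), changed by -1.22 ± 0.18 in 2aOKO and by -1.246 ± 0.21 in 2afl/fl mice, and also showed no overlap.

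Type V collagen, which nucleates type I fibrils, was lower by a smaller amount. Col5a1 had 1360, 1312, 1084 and 1573 in the 2aOKO O4 libraries, against 1974, 2003, 2026 and 2333 in the 2aOKO OPC libraries. Col5a1 in 2afl/fl mice had 1350, 1623 and 1287 in the 2afl/fl O4 libraries, against 2067, 2327 and 2105 in the 2afl/fl OPC libraries. Its log2 fold change was -0.65 ± 0.11 in 2aOKO mice (limma, adjusted p = 0.000448) and -0.61 ± 0.12 in 2afl/fl mice (adjusted p = 0.00332), and Col5a2 gave -0.43 ± 0.10 in 2aOKO and -0.69 ± 0.12 in 2afl/fl mice. All 5 fibrillar calls held when any 1 library was left out. Within a library the type I and III chains kept close proportions. Col3a1 stood at 0.79 to 1.07 of Col1a1 over the 14 libraries, whereas Col1a2 stood at 1.32 to 1.56 of Col1a1 in the 2aOKO O4 libraries, against 1.18 to 1.23 in the 2aOKO OPC libraries, with no overlap. In 2afl/fl mice the ratio of Col1a2 to Col1a1 was 1.21 to 1.43 in O4 libraries, against 1.09 to 1.19 in OPC libraries. Ratios are of counts not divided by transcript length.

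Of the other collagens 4 of 5 were lower in 2aOKO (all genes 15.5%) and 3 of 5 in 2afl/fl mice (all genes 12.2%), with medians of -0.83 and -0.88. The beaded-filament collagen VI has 3 chains here. Col6a1, of the highest mean among these collagens, had 1328, 1541, 639 and 1554 in the 2aOKO O4 libraries, against 1799, 2251, 2037 and 2490 in the 2aOKO OPC libraries. In 2afl/fl mice Col6a1 stood at 1418, 1441 and 970.2 in the 2afl/fl O4 libraries, against 2037, 2805 and 2144 in the 2afl/fl OPC libraries. Its O4 libraries were all below its OPC libraries in both genotypes, and its log2 fold change was -0.83 ± 0.24 in 2aOKO mice (limma, adjusted p = 0.0138) and -0.88 ± 0.27 in 2afl/fl mice (adjusted p = 0.0283). Col6a3 was lower by more than the other VI chains, with 521, 424, 331 and 472 in the 2aOKO O4 libraries, against 836, 835, 849.5 and 1063 in the 2aOKO OPC libraries. For 2afl/fl mice Col6a3 read 568, 505 and 412 in the 2afl/fl O4 libraries, against 1040, 1211 and 988 in the 2afl/fl OPC libraries. The Col6a3 difference was -1.05 ± 0.14 in 2aOKO mice (limma, adjusted p = 0.000117) and -1.13 ± 0.17 in 2afl/fl mice (adjusted p = 0.000362). Col6a2 passed in 2aOKO mice (-0.72 ± 0.23, adjusted p = 0.0245) and not in 2afl/fl mice (-0.65 ± 0.26, adjusted p = 0.0813, or 0.0166 with the replicate block), and the difference between the genotypes, -0.07 ± 0.35, did not pass (unadjusted p = 0.839).

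Col13a1, a transmembrane collagen, had the lowest level of the collagens per kilobase of exon and a log2 fold change of -1.33 ± 0.26 in 2aOKO mice (limma, adjusted p = 0.00153) and -1.06 ± 0.30 in 2afl/fl mice (adjusted p = 0.0186). Col12a1 binds the surface of collagen fibrils and was the collagen that passed in neither genotype. Its counts were 935, 1208, 479 and 1093 in the 2aOKO O4 libraries, against 1065, 1309, 1282 and 1696 in the 2aOKO OPC libraries. Col12a1 in 2afl/fl mice read 794, 1193 and 836 in the 2afl/fl O4 libraries, against 1057, 1300 and 1412 in the 2afl/fl OPC libraries. These groups overlapped and neither fold change passed (-0.59 ± 0.24, adjusted p = 0.0727 in 2aOKO, 0.0287 with the replicate block, and -0.43 ± 0.28, adjusted p = 0.275 in 2afl/fl mice). Several calls here were lost when 1 library was left out, in some fits with a fold change no smaller than before. Col6a2 in 2aOKO mice lost its call without OPC library 2 (-0.66, adjusted p = 0.0657), OPC library 4 (-0.67, adjusted p = 0.0672) or O4 library 3 (-0.47, adjusted p = 0.0723). In 2afl/fl mice Col6a1 lost it without OPC library 2 (-0.73, adjusted p = 0.105), OPC library 3 (-0.93, adjusted p = 0.0557), O4 library 1 (-0.96, adjusted p = 0.0505) or O4 library 3 (-0.69, adjusted p = 0.113), and Col13a1 without OPC library 2 (-0.79, adjusted p = 0.0868) or O4 library 3 (-0.92, adjusted p = 0.0717). Col12a1 gained one in 2aOKO mice without O4 library 2 (-0.74, adjusted p = 0.0382).

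The leucine-rich repeat matrix proteins were lower in 3 of 4 cases in each genotype (all genes 15.5% in 2aOKO and 12.2% in 2afl/fl mice), Bgn being the one that did not pass. Lum (lumican), which spaces collagen fibrils, had 258, 264, 149 and 187 in the 2aOKO O4 libraries, against 437, 429, 526 and 517 in the 2aOKO OPC libraries. Lum in 2afl/fl mice had 313, 275 and 216 in the 2afl/fl O4 libraries, against 626, 763 and 447 in the 2afl/fl OPC libraries. The groups did not overlap and the log2 fold change was -1.18 ± 0.20 in 2aOKO mice (limma, adjusted p = 0.000596) and -1.17 ± 0.23 in 2afl/fl mice (adjusted p = 0.00307). Dcn (decorin), a regulator of fibril diameter, gave -0.77 ± 0.21 in 2aOKO and -0.995 ± 0.25 in 2afl/fl mice, and Islr, a secreted immunoglobulin and leucine-rich repeat protein, -0.68 ± 0.20 in 2aOKO and -0.86 ± 0.23 in 2afl/fl mice, with all O4 libraries below all OPC libraries for both genes in both genotypes. Bgn (biglycan), the one of the 4 with the highest count and one also made by cells of the vessel wall, had 3145, 3067, 1954 and 3043 in the 2aOKO O4 libraries, against 3195, 3801, 3014 and 3824 in the 2aOKO OPC libraries. Bgn of 2afl/fl mice had 3382, 3443 and 2094 in the 2afl/fl O4 libraries, against 3711, 4247 and 2938 in the 2afl/fl OPC libraries. The Bgn groups overlapped, with -0.32 ± 0.18 in 2aOKO mice (limma, adjusted p = 0.189) and -0.31 ± 0.21 in 2afl/fl mice (adjusted p = 0.298). With the replicate block the adjusted p of Bgn was 0.0117 in 2aOKO and 0.034 in 2afl/fl mice, and it was lower in the O4 library of every pair (-0.62 to -0.02). The call of Islr was lost in 2aOKO mice without OPC library 2 (-0.61, adjusted p = 0.0505) or OPC library 4 (-0.61, adjusted p = 0.0522), and in 2afl/fl mice without O4 library 3 (-0.70, adjusted p = 0.0624).

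Among the 6 other matrix genes only Pcolce passed, in both genotypes, a share near those of all genes (15.5% lower in 2aOKO and 12.2% in 2afl/fl mice). Pcolce enhances the removal of the C-terminal propeptide of fibrillar procollagens. It had 598, 538, 343 and 518 in the 2aOKO O4 libraries, against 770.0, 808, 745 and 825 in the 2aOKO OPC libraries. Pcolce read 882, 569 and 373 in the 2afl/fl O4 libraries, against 1047, 986 and 850.4 in the 2afl/fl OPC libraries. The O4 libraries were apart from OPC libraries in 2aOKO mice and overlapped them in 2afl/fl mice, with log2 fold changes of -0.68 ± 0.21 in 2aOKO mice (limma, adjusted p = 0.0225) and -0.74 ± 0.25 in 2afl/fl mice (adjusted p = 0.0368). Sparc, a collagen-binding glycoprotein that endothelial cells also make, was the most abundant member per kilobase of exon and had 28060, 24047, 16140 and 24451 in the 2aOKO O4 libraries, against 26148, 26525, 18359 and 24750 in the 2aOKO OPC libraries. Sparc counts were 31232, 29350 and 17894 in the 2afl/fl O4 libraries, against 29899, 26787 and 20585 in the 2afl/fl OPC libraries. Library 3 was the lowest of all 4 groups and the sorts overlapped, with fold changes of -0.06 ± 0.20 in 2aOKO and -0.0024 ± 0.23 in 2afl/fl mice. Mgp, an inhibitor of matrix calcification, had 1026, 1209, 531 and 871 in the 2aOKO O4 libraries, against 857, 1004, 631 and 1046 in the 2aOKO OPC libraries. Mgp in 2afl/fl mice had 1166, 896 and 859 in the 2afl/fl O4 libraries, against 1055, 790.1 and 1014 in the 2afl/fl OPC libraries. Its sorts overlapped in both genotypes, and its log2 fold change of 0.0039 ± 0.22 in 2aOKO and 0.03 ± 0.25 in 2afl/fl mice turned to -0.11 and -0.084 after scaling to library totals.

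Fn1 (fibronectin), Nid1 (nidogen, a basement membrane linker) and Postn (periostin) complete this group. Fn1 gave -0.19 ± 0.22 in 2aOKO and -0.03 ± 0.26 in 2afl/fl mice, the values of Nid1 were -0.44 ± 0.18 in 2aOKO and -0.41 ± 0.21 in 2afl/fl mice, and those of Postn were -0.45 ± 0.25 in 2aOKO and -0.47 ± 0.29 in 2afl/fl mice. The replicate block gave Nid1 an adjusted p of 0.00766 in 2aOKO and 0.0252 in 2afl/fl mice, and Postn 0.0317 in 2aOKO mice. Pcolce lost its call in 2aOKO mice without OPC library 4 (-0.66, adjusted p = 0.0548) or O4 library 3 (-0.51, adjusted p = 0.0815), and in 2afl/fl mice without OPC library 1 (-0.68, adjusted p = 0.103), 2 (-0.72, adjusted p = 0.0891) or 3 (-0.83, adjusted p = 0.0551) or O4 library 3 (-0.43, adjusted p = 0.168). Nid1 gained a call in 2afl/fl mice without O4 library 2 (-0.67, adjusted p = 0.0102).

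Elastic fibre genes split. Eln (elastin) and Fbn1 (fibrillin, the microfibril scaffold on which elastin is laid) were lower in both genotypes, and the 3 fibulins did not pass in either. That is 2 of 5 genes lower, where 15.5% of all genes were lower in 2aOKO and 12.2% in 2afl/fl mice. Eln had 3925, 5268, 4458 and 4359 in the 2aOKO O4 libraries, against 6740, 6177, 6687 and 5959 in the 2aOKO OPC libraries. Eln counts in 2afl/fl mice were 4034, 4003 and 4154 in the 2afl/fl O4 libraries, against 6931, 4679 and 6050 in the 2afl/fl OPC libraries. The Eln groups did not overlap, and its log2 fold change was -0.51 ± 0.11 in 2aOKO mice (limma, adjusted p = 0.00244) and -0.52 ± 0.12 in 2afl/fl mice (adjusted p = 0.00833). Fbn1 gave -0.38 ± 0.09 in 2aOKO mice (limma, adjusted p = 0.00554) and -0.36 ± 0.11 in 2afl/fl mice (adjusted p = 0.0233), also without overlap, and Fbn1 lost its call in 2afl/fl mice without OPC library 1 (-0.34, adjusted p = 0.0646), OPC library 3 (-0.33, adjusted p = 0.0741) or O4 library 2 (-0.30, adjusted p = 0.0522). The 2afl/fl calls of Eln and Fbn1 were also lost with the 2 groups fitted alone and without the 4 libraries numbered 3. Without those 4 libraries Fbn1 lost its 2aOKO call too. Fbln5, which tethers elastin to cells, had 2587, 2506, 2305 and 1834 in the 2aOKO O4 libraries, against 2244, 2061, 1854 and 1791 in the 2aOKO OPC libraries. Fbln5 in 2afl/fl mice stood at 2289, 1985 and 2592 in the 2afl/fl O4 libraries, against 2402, 1487 and 1943 in the 2afl/fl OPC libraries. It was the member furthest from the others in sign, with overlapping groups, fold changes of 0.21 ± 0.14 in 2aOKO mice (limma, adjusted p = 0.287) and 0.25 ± 0.16 in 2afl/fl mice (adjusted p = 0.278) and a higher value in the O4 library of 6 of 7 pairs (mean pair difference 0.23 ± 0.19, SD, n = 7). The ratio of Fbln5 to Col1a1 was 0.55 or higher in 2aOKO O4 libraries, against 0.21 to 0.35 in 2aOKO OPC libraries, and 0.50 to 1.02 in 2afl/fl O4 libraries, against 0.13 to 0.29 in 2afl/fl OPC libraries. Fbln2 stood at -0.11 ± 0.09 in 2aOKO and -0.05 ± 0.11 in 2afl/fl mice, and Fbln1 at -0.47 ± 0.18 (adjusted p = 0.0571, 0.0181 with the block, and 0.0336 without O4 library 1, where its log2 fold change was -0.57) in 2aOKO and -0.24 ± 0.21 in 2afl/fl mice.

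Igf2, a growth factor made by the meninges, choroid plexus and vessels of the brain, was the only one of the 4 genes of its axis to pass (all genes 15.5% lower in 2aOKO and 12.2% in 2afl/fl mice). Its counts (chr7:142204505-142220554, mm39) were 15369, 15143, 11347 and 13829 in the 2aOKO O4 libraries, against 21208, 27607, 31278 and 29236 in the 2aOKO OPC libraries. Igf2 in the other genotype read 19336, 12055 and 11026 in the 2afl/fl O4 libraries, against 30847, 31588 and 26603 in the 2afl/fl OPC libraries. All O4 libraries were below all OPC libraries, with log2 fold changes of -0.97 ± 0.16 in 2aOKO mice (limma, adjusted p = 0.000573) and -1.11 ± 0.19 in 2afl/fl mice (adjusted p = 0.00113). The binding proteins, which hold the ligand in the extracellular space, did not pass in the main fit, which has no block. Igfbp2 gave -0.44 ± 0.21 in 2aOKO mice (adjusted p = 0.134, 0.0395 with the replicate block and 0.0081 with the pairs of each genotype as the block). In 2afl/fl mice it gave -0.45 ± 0.25 (adjusted p = 0.195, and 0.0681 and 0.0171 with those blocks). Igfbp5 gave 0.04 ± 0.12 in 2aOKO mice, which was -0.078 after scaling to library totals, and -0.17 ± 0.14 in 2afl/fl mice. Igfbp6 had 335, 429.7, 136 and 326 in the 2aOKO O4 libraries, against 284, 433, 165 and 292 in the 2aOKO OPC libraries. Igfbp6 in 2afl/fl mice had 389.5, 397 and 230.4 in the 2afl/fl O4 libraries, against 358, 263 and 366 in the 2afl/fl OPC libraries. The spread within each sort was wide, the groups overlapped, and the fold changes were 0.03 ± 0.33 in 2aOKO and 0.02 ± 0.39 in 2afl/fl mice, or -0.088 and -0.096 after scaling to library totals. Igf2 thus differed between the sorts, and Igfbp2 did so in both genotypes with the pairs of each genotype as the block. Igfbp5 and Igfbp6 gave no difference detectable above their spread. Igf2 was not tested against its binding proteins.

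Igfbp2 was set beside a choroid plexus list, since the choroid plexus expresses it too. Igfbp2 read 7643, 6744, 5320 and 7007 in the 2aOKO O4 libraries, against 8703, 9426, 8423 and 9361 in the 2aOKO OPC libraries, and 11958, 5707 and 4947 in the 2afl/fl O4 libraries, against 12292, 8340 and 8460 in the 2afl/fl OPC libraries. Its 2afl/fl values were highest in library 1 of both sorts, and so was the summed level of the 14 ependyma and choroid plexus markers, 325637, 67306 and 96290 in 2afl/fl O4 libraries, against 302618, 95638 and 114834 in 2afl/fl OPC libraries, most of it Ttr. In 2aOKO mice that sum was 262682, 136527, 105106 and 125983 in O4 libraries, against 211840, 175262, 114252 and 133776 in OPC libraries, and library 1 was again the highest of both sorts, whereas Igfbp2 was highest in library 1 of the O4 group and in library 2 of the OPC group. Without 2afl/fl O4 library 1 the 2afl/fl log2 fold change of Igfbp2 was -0.84, adjusted p = 0.00576. The part of choroid plexus RNA in these values was not tested.

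The complement regulator Serping1, an inhibitor of the first complement proteases, had 352, 429.7, 186 and 283 in the 2aOKO O4 libraries, against 458, 436, 476 and 589 in the 2aOKO OPC libraries. Serping1 in 2afl/fl mice had 405, 334 and 228 in the 2afl/fl O4 libraries, against 395, 486 and 518 in the 2afl/fl OPC libraries. The groups were apart in 2aOKO and overlapped in 2afl/fl mice, with log2 fold changes of -0.70 ± 0.23 in 2aOKO mice (limma, adjusted p = 0.0283) and -0.56 ± 0.26 in 2afl/fl mice (adjusted p = 0.13), and the difference between the genotypes, -0.14 ± 0.35, did not pass (unadjusted p = 0.697). The Serping1 call in 2aOKO mice was lost without OPC library 3 (-0.71, adjusted p = 0.0543) or 4 (-0.61, adjusted p = 0.087), or O4 library 3 (-0.47, adjusted p = 0.0951) or 4 (-0.67, adjusted p = 0.058).

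Transporters held the steepest difference. Slc6a13 takes up GABA, betaine and taurine at the leptomeninges, and its counts (chr6:121277247-121314681, mm39) were 309, 461, 260.3 and 397 in the 2aOKO O4 libraries, against 641, 1010, 1105 and 1133 in the 2aOKO OPC libraries. The Slc6a13 counts of 2afl/fl mice were 477, 435 and 274 in the 2afl/fl O4 libraries, against 989.7, 1441 and 975 in the 2afl/fl OPC libraries. Both genotypes showed groups apart, and the log2 fold change was -1.44 ± 0.23 in 2aOKO mice (limma, adjusted p = 0.000361) and -1.53 ± 0.26 in 2afl/fl mice (adjusted p = 0.00122), which puts the O4 level at 36.8% of the OPC level in 2aOKO and at 34.5% in 2afl/fl mice. Slc22a6, an organic anion exchanger (chr19:8595360-8605664), gave -1.35 ± 0.27 in 2aOKO mice (limma, adjusted p = 0.00187) and -1.22 ± 0.31 in 2afl/fl mice (adjusted p = 0.0117), also without overlap. Slc13a4, a sodium-sulfate cotransporter that the choroid plexus expresses too, was the one with the highest count of the 3 and the smallest fold change, with 1661, 1363, 664 and 1120 in the 2aOKO O4 libraries, against 1615, 1564, 1361 and 1613 in the 2aOKO OPC libraries. Slc13a4 in 2afl/fl mice read 1717, 806 and 829 in the 2afl/fl O4 libraries, against 2125, 1267 and 1359 in the 2afl/fl OPC libraries. Library 1 was the highest Slc13a4 library of all 4 groups, the sorts overlapped, and the fold changes were -0.43 ± 0.27 in 2aOKO mice (limma, adjusted p = 0.25) and -0.56 ± 0.31 in 2afl/fl mice (adjusted p = 0.209). With the replicate block its adjusted p was 0.0758 in 2aOKO and 0.0556 in 2afl/fl mice, with the pairs of each genotype as the block it was 0.0343 in 2aOKO and 0.0244 in 2afl/fl mice, and without 2afl/fl O4 library 1 the 2afl/fl value was -0.91, adjusted p = 0.0494.

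**Figure D2:**
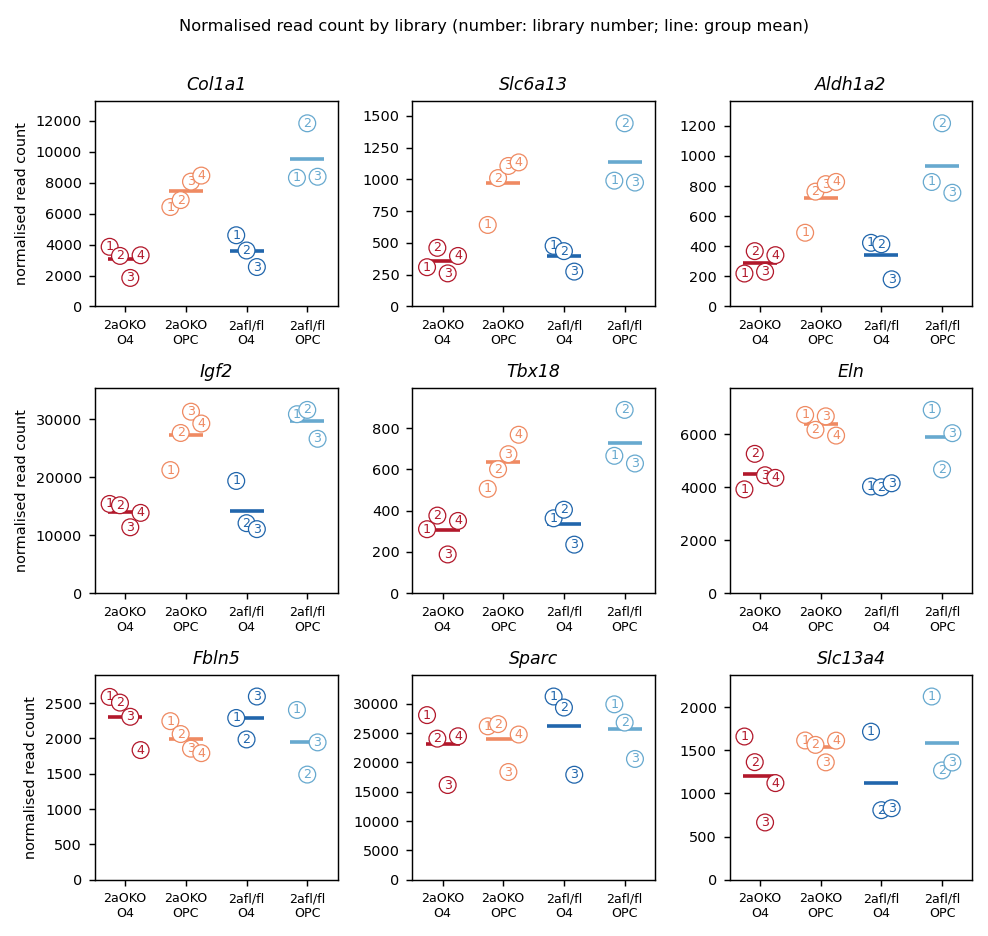
The plot of values by library gives the normalised read count of 9 members, the number in each circle being the library number and the line the group mean, with axes that start at 0. For Col1a1, Slc6a13, Aldh1a2, Igf2, Tbx18 and Eln all O4 libraries lie below all OPC libraries of their genotype, and for Fbln5, Sparc and Slc13a4 the sorts overlap.

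Aldh1a2, the enzyme that makes retinoic acid from retinal and by which the embryonic meninges supply it, had 219, 368, 231 and 341 in the 2aOKO O4 libraries, against 489.8, 763, 813 and 828 in the 2aOKO OPC libraries (chr9:71123071-71203526, mm39). The 2afl/fl mice had Aldh1a2 counts of 423, 413 and 181 in the 2afl/fl O4 libraries, against 827, 1217 and 756 in the 2afl/fl OPC libraries. There was no overlap, and the fold change was -1.32 ± 0.27 in 2aOKO mice (limma, adjusted p = 0.00221) and -1.53 ± 0.32 in 2afl/fl mice (adjusted p = 0.0039), an O4 level of 39.9% of the OPC level in 2aOKO and 34.7% in 2afl/fl mice. Crabp2, which carries retinoic acid to its nuclear receptors, had 181, 234, 103 and 227 in the 2aOKO O4 libraries, against 196, 338, 208 and 327 in the 2aOKO OPC libraries. Crabp2 in 2afl/fl mice read 283, 240.1 and 175 in the 2afl/fl O4 libraries, against 239, 344 and 218 in the 2afl/fl OPC libraries. These groups overlapped, with -0.54 ± 0.27 in 2aOKO mice (limma, adjusted p = 0.143) and -0.20 ± 0.31 in 2afl/fl mice (adjusted p = 0.688); with the block the adjusted p in 2aOKO mice was 0.0249.

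The transcription factors were a small and uneven group, with 1 of 5 lower in 2aOKO (15.5% of all genes) and 2 of 5 in 2afl/fl mice (12.2% of all genes). On so few genes, the 2aOKO count is near the share of all genes. Tbx18, a T-box factor of mural and leptomeningeal cells (chr9:87584853-87613314, mm39), had 310.1, 376, 188 and 350.2 in the 2aOKO O4 libraries, against 506, 602, 674 and 769 in the 2aOKO OPC libraries. Tbx18 counts in 2afl/fl mice were 363, 405 and 235 in the 2afl/fl O4 libraries, against 666, 889 and 629 in the 2afl/fl OPC libraries. The groups did not overlap, and its log2 fold change was -1.09 ± 0.22 in 2aOKO mice (limma, adjusted p = 0.00204) and -1.14 ± 0.26 in 2afl/fl mice (adjusted p = 0.00583). Foxc1, a forkhead factor needed for the meninges to form, had the highest mean of the 5, with 796, 909.5, 407 and 735 in the 2aOKO O4 libraries, against 831, 1153, 789 and 1070 in the 2aOKO OPC libraries. The 2afl/fl mice gave Foxc1 counts of 809, 1109 and 609 in the 2afl/fl O4 libraries, against 924, 1417 and 977 in the 2afl/fl OPC libraries. The Foxc1 groups overlapped, with fold changes of -0.47 ± 0.24 in 2aOKO mice (limma, adjusted p = 0.147) and -0.41 ± 0.28 in 2afl/fl mice (adjusted p = 0.303), and it was lower in the O4 library of all 7 pairs (adjusted p = 0.0133 in 2aOKO mice with the block). Foxc2, its close relative, had 159.6, 385, 105 and 276 in the 2aOKO O4 libraries, against 228, 396, 173 and 347 in the 2aOKO OPC libraries. Foxc2 read 197, 247 and 148 in the 2afl/fl O4 libraries, against 153, 238 and 243 in the 2afl/fl OPC libraries. It spread widely within each sort and gave -0.40 ± 0.36 in 2aOKO and -0.10 ± 0.41 in 2afl/fl mice.

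Foxd1 passed in 2afl/fl mice (-0.76 ± 0.24, adjusted p = 0.0307) and not in 2aOKO mice (-0.38 ± 0.21, adjusted p = 0.183, 0.0479 with the replicate block and 0.0523 with the pairs of each genotype as the block), and the difference between the genotypes, 0.38 ± 0.32, did not pass (unadjusted p = 0.248). Its 2afl/fl call was lost without OPC library 2 (-0.58, adjusted p = 0.128), OPC library 3 (-0.82, adjusted p = 0.0541), O4 library 1 (-0.70, adjusted p = 0.0984) or O4 library 3 (-0.70, adjusted p = 0.0902). Twist1, a basic helix-loop-helix factor of mesenchyme, had the lowest level of all members per kilobase of exon and gave -0.47 ± 0.31 in 2aOKO and -0.52 ± 0.35 in 2afl/fl mice, neither of which passed.

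The calls that held in every alternative tried numbered 16 of 21 in 2aOKO mice and 12 of 20 in 2afl/fl mice. The same count was not made over all genes, so these shares cannot be read as particular to the members. The 12 were Aldh1a2, Col1a1, Col1a2, Col3a1, Col5a1, Col5a2, Col6a3, Dcn, Igf2, Lum, Slc6a13 and Tbx18, and all 12 were also among the 16 of 2aOKO mice, with Col13a1, Col6a1, Eln and Slc22a6.

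Promoters of some members are given as sequence. RefSeq start regions (GRCm38.p6) were matched for 29 of 40 members. Shown are 3 members that fell steeply and held CCAAT near the start, beside Fbln5, which did not fall. Each runs from 120 bases before the start to 30 bases from it on, with CCAAT or its reverse complement ATTGG in capitals.
Col1a2 (chr6:4505498-4505647, plus strand): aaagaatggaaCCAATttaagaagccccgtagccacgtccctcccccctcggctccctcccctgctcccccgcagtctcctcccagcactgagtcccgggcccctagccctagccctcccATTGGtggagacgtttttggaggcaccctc
Tbx18 (chr9:87731231-87731380, minus strand): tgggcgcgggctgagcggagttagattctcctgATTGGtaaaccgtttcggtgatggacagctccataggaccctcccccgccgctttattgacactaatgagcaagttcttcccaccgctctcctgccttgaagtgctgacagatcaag
Aldh1a2 (chr9:71215669-71215818, plus strand): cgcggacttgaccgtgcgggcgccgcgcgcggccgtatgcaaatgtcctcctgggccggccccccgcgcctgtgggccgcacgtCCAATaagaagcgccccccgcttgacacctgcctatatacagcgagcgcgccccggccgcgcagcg
Fbln5 (chr12:101819090-101819239, minus strand): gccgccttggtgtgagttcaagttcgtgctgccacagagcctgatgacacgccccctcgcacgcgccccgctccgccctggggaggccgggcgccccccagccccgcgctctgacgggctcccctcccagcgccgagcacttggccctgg
In the printed windows Col1a2 held the forward CCAAT at -109 and the reverse at 0, counting the start base as 0, Tbx18 the reverse at -87 and Aldh1a2 the forward at -36, and the window of Fbln5 held none. Over the whole window of 250 bases before to 50 after the start, on either strand, CCAAT was in 41.4% of member promoters and 38.0% of all 27025 promoters, TATAAA in 13.8% and 14.2%, the forkhead-type TGTTTAC in 3.45% and 3.52%, and the E-box CAGATG in 24.1% and 17.3%. Fbln5 held CCAAT in that wider window. Of other members that fell steeply, Slc22a6 held it there, and Slc6a13, Col3a1, Col13a1 and Col6a3 did not. The printed contrast is thus no feature of the members that fell. These letter matches are a description.

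Per kilobase of exon the order of levels in OPC libraries was led by Sparc (9086 normalised reads per kilobase, mean of 7 libraries), Igfbp2 (6361), Igf2 (5399), Fn1 (2602) and Col1a2 (1815), and ended with Foxd1 (85.7), Col13a1 (79.2) and Twist1 (71.1). Lengths are union exons of GENCODE, so a gene with long unused exons is understated. Col1a2 stood at 799 reads per kilobase in 2aOKO O4 libraries, against 1675 in 2aOKO OPC libraries, and at 860 in 2afl/fl O4 libraries, against 2003 in 2afl/fl OPC libraries, and Sparc at 8517 in 2aOKO O4 libraries, against 8800 in 2aOKO OPC libraries, and at 9614 in 2afl/fl O4 libraries, against 9466 in 2afl/fl OPC libraries. The 40 members together made up 0.200% to 0.364% of the normalised reads in O4 libraries, against 0.412% to 0.522% in OPC libraries.

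Genes around these members were read from lists outside the 40. Those lists were also chosen with earlier results of these data known, so they are no independent check. Of 38 other fibroblast genes tested 14 were lower and 0 higher in 2aOKO O4 libraries, and 12 were lower and 0 higher in 2afl/fl O4 libraries, with medians of -0.44 and -0.49 (all genes -0.02 and -0.01). Clec3b, a plasminogen-binding lectin, gave -1.42 ± 0.21 in 2aOKO mice (limma, adjusted p = 0.000232) and -1.36 ± 0.25 in 2afl/fl mice (adjusted p = 0.00179). The homeobox gene Prrx1 gave -0.72 ± 0.11 in 2aOKO and -0.69 ± 0.13 in 2afl/fl mice, the laminin Lama2 -0.92 ± 0.15 in 2aOKO and -0.91 ± 0.18 in 2afl/fl mice and the basement membrane collagen Col15a1 -0.73 ± 0.14 in 2aOKO and -0.97 ± 0.16 in 2afl/fl mice. The 33 genes of collagen modification and turnover, most of which many cell types express, passed in both directions: 6 were higher and 3 lower in 2aOKO mice, and 7 were higher and 2 lower in 2afl/fl mice, with medians of -0.12 and -0.10. Over all genes 17.6% were higher and 15.5% lower in 2aOKO and 14.3% higher and 12.2% lower in 2afl/fl mice, so the share of these genes that was higher in 2aOKO O4 libraries was near that of all genes. The collagen galactosyltransferase Colgalt2 rose by 0.60 ± 0.09 in 2aOKO and 0.63 ± 0.10 in 2afl/fl mice and the lysyl hydroxylase Plod2 by 0.81 ± 0.14 in 2aOKO and 0.71 ± 0.16 in 2afl/fl mice, whereas the gelatinase Mmp2 gave -0.41 ± 0.11 in 2aOKO and -0.45 ± 0.12 in 2afl/fl mice.

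Of 13 retinoid genes outside the members 5 were lower and 0 higher in 2aOKO O4 libraries, where 15.5% of all genes were lower, and 3 were lower and 0 higher in 2afl/fl O4 libraries, where 12.2% were, with medians of -0.39 and -0.42. Aldh1a1, a second retinal dehydrogenase, gave -0.99 ± 0.20 in 2aOKO mice (limma, adjusted p = 0.00177) and -1.12 ± 0.23 in 2afl/fl mice (adjusted p = 0.00354), and Rdh10, which makes the retinal substrate, -0.39 ± 0.12 in 2aOKO and -0.43 ± 0.13 in 2afl/fl mice. Of 16 genes of the insulin-like growth factor pathway 3 were higher and 3 lower in 2aOKO mice and 2 higher and 1 lower in 2afl/fl mice, shares near or below those of all genes. The receptor adaptors Irs1 (0.85 ± 0.13 in 2aOKO and 0.66 ± 0.15 in 2afl/fl mice) and Irs2 (0.75 ± 0.13 in 2aOKO and 0.44 ± 0.15 in 2afl/fl mice) rose, and the binding protein Igfbp3 (-0.48 ± 0.13 in 2aOKO and -0.54 ± 0.15 in 2afl/fl mice) fell. Of 18 genes of the TGF-beta pathway 3 were higher and 2 lower in 2aOKO and 2 higher and 1 lower in 2afl/fl mice, again near or below the shares of all genes. Those of smallest p were the signal transducer Smad3 (1.33 ± 0.15 in 2aOKO and 1.251 ± 0.17 in 2afl/fl mice) and its inhibitory relative Smad7 (1.08 ± 0.16 in 2aOKO and 1.21 ± 0.19 in 2afl/fl mice), both higher. Of 14 arachnoid and dura genes 2 were lower and 1 higher in each genotype: the connexins Gjb2 (-0.96 ± 0.22 in 2aOKO and -1.07 ± 0.26 in 2afl/fl mice) and Gjb6 (-0.86 ± 0.21 in 2aOKO and -0.98 ± 0.24 in 2afl/fl mice), the second also an astrocyte gene, and Cldn11 (4.30 ± 0.27 in 2aOKO and 4.46 ± 0.31 in 2afl/fl mice), which is also a myelin gene.

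**Figure D3:**
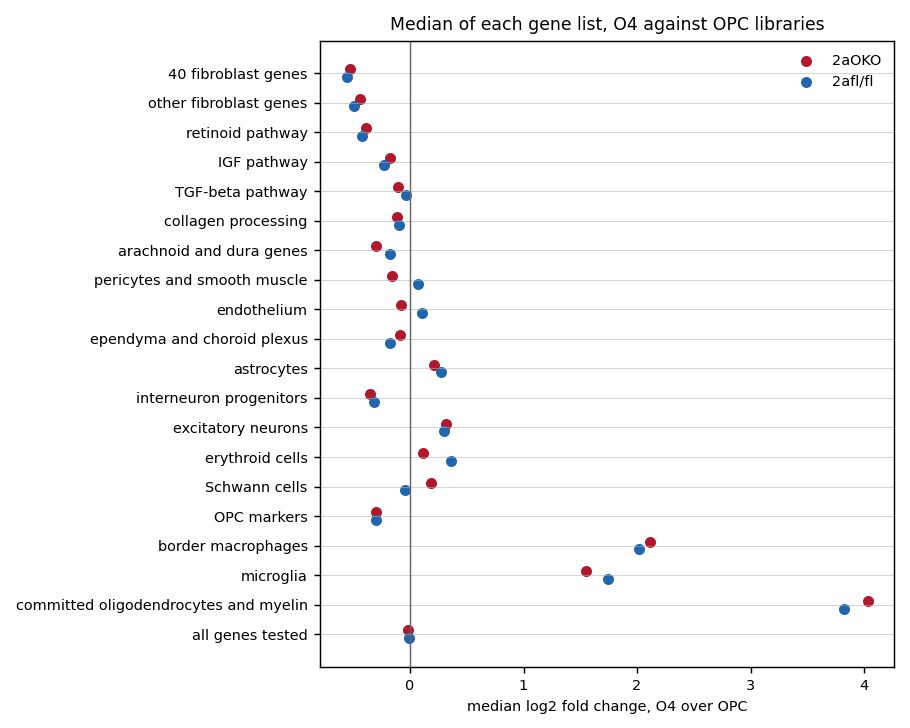
The plot of list medians gives the median log2 fold change, O4 over OPC, of the 40 fibroblast genes, of 18 other gene lists and of all genes tested (x axis), for 2aOKO (red) and 2afl/fl (blue) mice. The 40 members lie at -0.53 and -0.56, the other fibroblast genes at -0.44 and -0.49, the endothelium list at -0.08 and 0.11, and the committed oligodendrocyte list furthest right.

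Endothelial genes did not pass between the sorts. Of 18 endothelial markers 0 passed in either genotype, by limma over all genes, 0 had an unadjusted p under 0.05, and the medians were -0.08 and 0.11. Unlike the members, this list was not tested with the replicate block. Over all genes 15.5% were lower and 17.6% higher in 2aOKO, and 12.2% lower and 14.3% higher in 2afl/fl mice. An unadjusted p under 0.05 was found for 6692 of the 15565 genes in 2aOKO and 6014 in 2afl/fl mice. Their summed level was 29281 to 48425 in 2aOKO O4 libraries, against 30373 to 50721 in 2aOKO OPC libraries, and 34468 to 63052 in 2afl/fl O4 libraries, against 32769 to 48761 in 2afl/fl OPC libraries. Of 18 pericyte and smooth muscle markers 2 were lower in 2aOKO mice, Vtn (-1.004 ± 0.18) and Cspg4 (-0.87 ± 0.29, also an OPC gene), and 1 was lower in 2afl/fl mice, Vtn (-0.97 ± 0.21), with medians of -0.16 and 0.07. Both shares were below those of all genes. The summed pericyte and smooth muscle level was 54928 to 72760 in 2aOKO O4 libraries, against 95498 to 108146 in 2aOKO OPC libraries, and 58486 to 136296 in 2afl/fl O4 libraries, against 100214 to 150055 in 2afl/fl OPC libraries. Cspg4 alone held 31596 to 46311 of it in 2aOKO O4 libraries, against 63381 to 75327 in 2aOKO OPC libraries. Rgs5, a defining pericyte gene, gave -0.08 ± 0.15 in 2aOKO and 0.09 ± 0.17 in 2afl/fl mice, and Pdgfrb, which fibroblasts share, -0.26 ± 0.16 in 2aOKO and -0.20 ± 0.18 in 2afl/fl mice. Others on that list had a smaller p than these in 2aOKO mice without passing, among them Anpep (-0.55 ± 0.23) and Mcam (0.36 ± 0.15). Pdgfra, the antigen of the OPC beads, was itself lower in O4 libraries, with -0.98 ± 0.17 in 2aOKO (limma, adjusted p = 0.000777) and -0.97 ± 0.20 in 2afl/fl mice (adjusted p = 0.00372). It read 148863, 134957, 123976 and 185308 in the 2aOKO O4 libraries, against 278210, 262484, 301923 and 312783 in the 2aOKO OPC libraries, and 112936, 185959 and 123948 in the 2afl/fl O4 libraries, against 263975, 237133 and 311699 in the 2afl/fl OPC libraries. The microglia list was higher in O4 libraries, 14 of 15 markers in 2aOKO and 13 of 15 in 2afl/fl mice. Lower values in O4 libraries were not particular to fibroblast genes. Of 20 OPC markers 9 were lower and 3 higher in 2aOKO, and 8 lower and 2 higher in 2afl/fl mice (medians -0.30 and -0.30). Of 12 interneuron progenitor genes 4 were lower and 0 higher in 2aOKO, and 4 lower and 1 higher in 2afl/fl mice (medians -0.35 and -0.32). The part that any of these cell types had in the members' levels was not tested.

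Within each group the members deviated together. Library 3 was the lowest of the 2aOKO O4 group for 36 of 40 members, where it was the lowest for 29.5% of all genes, and the lowest of the 2afl/fl O4 group for 32 of 40, where it was the lowest for 30.4% of all genes. Library 2 was the highest of the 2afl/fl OPC group for 25 of 40 members, where it was the highest for 34.2% of all genes. That library also had the highest pericyte and smooth muscle sum of its group (150055, the others 100214 and 104518), 116056 of it Cspg4. The endothelial sum was also lowest in library 3 of each of the 4 groups, at 29281 in 2aOKO O4, 30373 in 2aOKO OPC, 34468 in 2afl/fl O4 and 32769 in 2afl/fl OPC libraries. The summed oligodendrocyte markers were highest in library 3 of both O4 groups, at 1494365 in 2aOKO and 1848562 in 2afl/fl O4 libraries. The part of these cell types in the members' values of libraries 2 and 3 was not tested. Leaving out all 4 libraries numbered 3, a choice made after these values were seen, left 20 members lower in 2aOKO mice (9.3% of all genes in that fit) with a median of -0.44, and 14 lower in 2afl/fl mice (2.3% of all genes) with a median of -0.47.

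**Figure D4:**
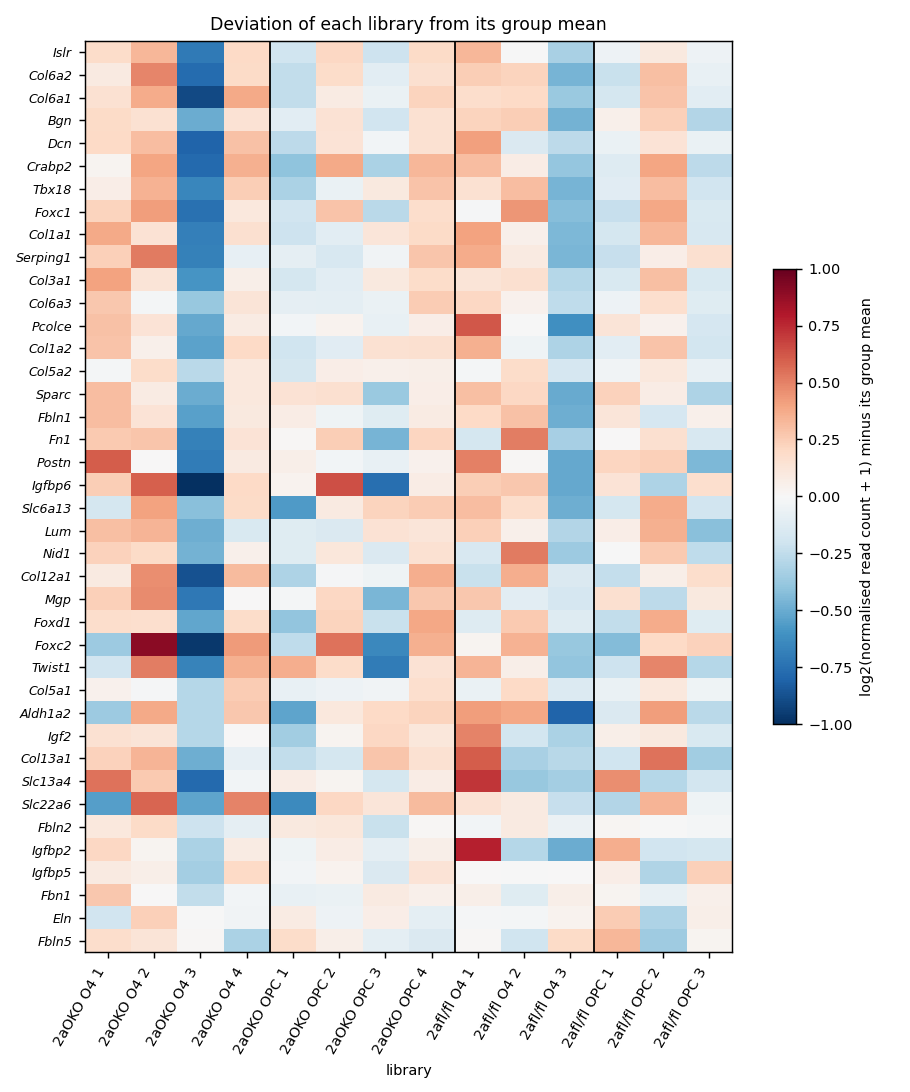
The map of deviations shows, for each of the 40 members (rows) and 14 libraries (columns, 2aOKO O4, 2aOKO OPC, 2afl/fl O4 and 2afl/fl OPC from the left), log2(normalised read count + 1) minus its group mean, red above and blue below, with rows ordered by their correlation with the mean of the members. The column of 2aOKO O4 library 3 is blue for nearly all rows, and Fbn1, Eln and Fbln5 at the bottom do not follow the others.

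Not every member shared these deviations. The correlation of a member's deviations with the mean deviation of the 40 over the 14 libraries, a description over libraries that share their depth and group centring and of a mean that includes the member itself, was 0.97 for Islr, 0.97 for Col6a2, 0.96 for Col6a1 and 0.93 for Bgn and Dcn. It was 0.58 for Igfbp2, 0.44 for Igfbp5 and 0.40 for Fbn1, and it was negative for Eln (-0.17) and Fbln5 (-0.27). Eln, unlike Fbln5, was lower in O4 libraries. Fn1 and Sparc, whose sorts gave no difference detectable above their spread, followed the other members between libraries (0.79 and 0.80). Over 13657 other genes with a mean of at least 50, those whose deviations were most like the members' mean were Aebp1 (r = 0.97), Nbl1 (0.96), Mrc2 (0.95), Efemp1 (0.94), Zic2 (0.94), C1qtnf1 (0.93), Grb10 (0.93), Trabd2b (0.93), Spon2 (0.92) and Slco2a1 (0.92), each over 14 libraries.

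Between the genotypes no member was called in either sort. In OPC libraries 0 of 40 members passed by limma with adjustment over all genes and 0 had an unadjusted p under 0.05, where 1.61% of all genes did. In O4 libraries the counts were 0 and 0, where 2.89% of all genes had such a p. With the replicate block 0 members passed in either sort, and 3 in OPC libraries (Col5a2, Col6a3 and Foxd1; 3.26% of all genes) and 2 in O4 libraries (Crabp2 and Sparc; 5.69% of all genes) had an unadjusted p under 0.05. The members' median log2 fold change, 2aOKO over 2afl/fl, was -0.11 in OPC and -0.09 in O4 libraries (all genes -0.0018 and -0.0020), with 30 of 40 below 0 in each sort (all genes 50.7% in OPC and 50.6% in O4 libraries). Members deviated together within libraries, so these are not 40 separate signs. The O4 median was 0.08 without 2aOKO O4 library 3 and 0.01 without 2afl/fl O4 library 1, and the OPC median was -0.04 without 2afl/fl OPC library 2.

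Single members lay between -0.49 and 0.39 on the log2 scale. In OPC libraries the lowest value was that of Aldh1a2 (-0.37 ± 0.30, unadjusted p = 0.236) and the highest that of Foxc2 (0.39 ± 0.39), and in O4 libraries the lowest was Col13a1 (-0.49 ± 0.28, unadjusted p = 0.101) and the highest Eln (0.14 ± 0.12). Col1a1 gave -0.34 ± 0.23 in OPC and -0.24 ± 0.23 in O4 libraries, and Slc6a13 -0.23 ± 0.25 and -0.14 ± 0.25. The genotype groups were apart in OPC libraries for 4 of 40 members, where the same held for 4.75% of all genes. Col5a2 (1379, 1625, 1614 and 1621 in 2aOKO, against 1716, 1890 and 1664 in 2afl/fl), Dcn (1846, 2435, 2179 and 2466 in 2aOKO, against 2544, 2930 and 2548 in 2afl/fl) and Pcolce (770.0, 808, 745 and 825 in 2aOKO, against 1047, 986 and 850.4 in 2afl/fl) were lower in 2aOKO mice, and Fbn1 (2921, 2935, 3278 and 3184 in 2aOKO, against 2806, 2610 and 2848 in 2afl/fl) was higher. Exact two-sided permutation p for these were 0.0286 (Col5a2), 0.0857 (Dcn), 0.0286 (Pcolce) and 0.0571 (Fbn1), unadjusted, the smallest that 4 against 3 libraries allow being 0.0286. The other members had a permutation p of 0.114 or more. These 4 were picked from the 40 because their groups were apart, so small p followed from that choice and are no evidence of a genotype difference. In O4 libraries the groups were apart for 0 members, where 2.67% of genes were apart. All of these comparisons share their libraries with those between the sorts.

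The fall between the sorts did not differ detectably between the genotypes. The difference of the genotype effect between O4 and OPC was called for 0 of 40 members, 0 had an unadjusted p under 0.05, where 0.848% of all genes did, and its median was 0.0082. The 2 ends of the range were Crabp2 (-0.34 ± 0.42) and Foxd1 (0.38 ± 0.32). For Col1a1 the difference was 0.10 ± 0.33, its standard error exceeding the value.

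**Figure D5:**
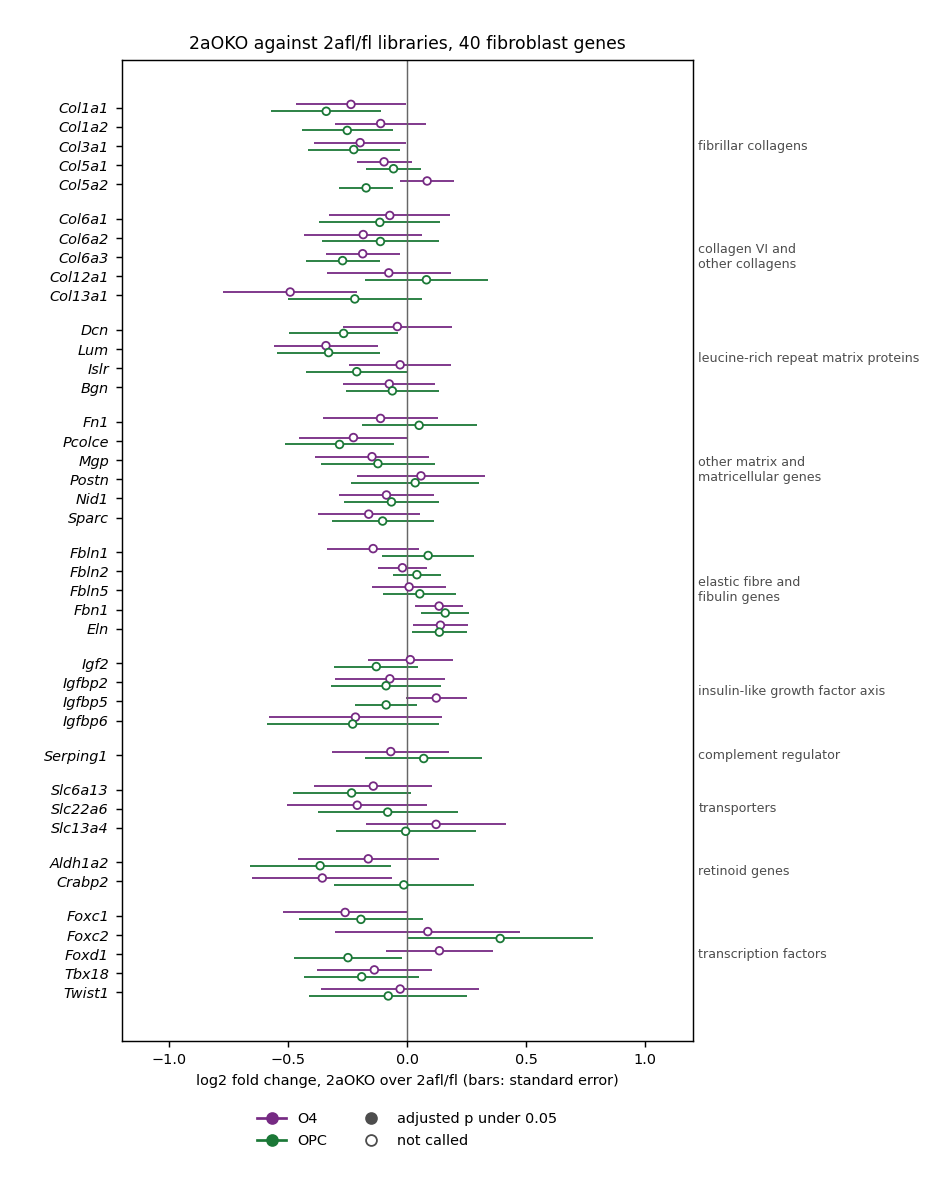
The plot of fold changes by genotype gives the log2 fold change of each member, 2aOKO over 2afl/fl, with its standard error, in O4 (purple) and OPC (green) libraries. All points are open because no adjusted p was under 0.05, and they lie between -0.49 and 0.39.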

How the data were processed

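RNA-seq libraries (HiSeq, paired-end) were aligned by the authors with STAR 2.7.8a to mm39 in Partek 10, and the deposited table holds their median-ratio normalised read counts (a signal that need not be whole) of 18355 genes in 14 libraries. Raw counts were not used here. At 20 or below, 93.2% to 94.9% of values were within 0.05 of whole multiples of 1 step per library, too few for a count test, and their steps gave estimated depths of 32900000 to 44100000 reads. Deposited fold changes and p-values of the authors' own comparisons were not used.

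Values were tested as log2(value + 1) with limma 3.58.1 (R 4.3.3), with intensity trend, 1 mean per group and 14 libraries, over 15565 genes with a mean of at least 10, with Benjamini-Hochberg adjustment over all of them. The fit was tested on simulated data in which each library was drawn independently. That test does not cover the shared deviations of libraries with the same number. Fold changes on this scale understate low genes. Libraries with the same number correlated in their deviations from group means (sorts of a genotype, 7 pairs, r = 0.33 to 0.48; genotypes of a sort, 6 pairs, 0.12 to 0.49; sorts of a genotype with other numbers, -0.36 to 0.0016). The paper gives n = 3 to 4 per genotype for these data and states that its legends hold the numbers of animals. Whether O4 and OPC libraries with the same number came from 1 mouse is not stated. The p-values measure the spread between libraries.

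Members and gene lists were chosen with earlier results of these data known. Per-library values are given, in each role, for the member of highest mean, those of highest and lowest log2 fold change in 2afl/fl mice and those that went against the majority. Values of further members were chosen after they were seen. From other lists up to 4 genes of smallest p are named, and 10 other genes most like the members' mean. Some genes of those lists, such as Rgs5 and Pdgfrb, were named outside this rule. Promoter windows (RefSeq, most upstream start) and exon lengths (GENCODE release 21) are of GRCm38, and gene positions of mm39. Alternatives were pseudocount, low-value filter, replicate block, scaling, trend, 2-group fits, the study's threshold (unadjusted p under 0.05 and a 1.25-fold change) and each library left out. The authors' strandedness and handling of shared reads are not given in the sources used here.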

Additional observations from a re-analysis of the deposited data

Results flagged for a closer look

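In the groups of 4 libraries 80 sets of values were examined (40 members in 2 groups) and 6 held a library far from the other 3, where about 1 in 20 sets does so by chance. In 2aOKO O4 library 3 Dcn (745), Foxd1 (210) and Bgn (1954) stood well below the other libraries, which held 1496 to 1611, 339 to 343 and 3043 to 3145 normalised reads. In 2aOKO OPC library 4 Col5a1 (2333) and Col6a3 (1063) stood above the others, at 1974 to 2026 and 835 to 850. Col5a2 in 2aOKO OPC library 1 (1379) lay below the others, at 1614 to 1625.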

How the results depend on the processing

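The counts of members called and their medians stayed within 1.5 times the main count or within 1 pooled SD of the library medians (0.26 on the log2 scale), in all alternatives run; that SD exceeds the genotype medians, so their staying within it says little. Without any 1 library, 17 to 22 members were lower in 2aOKO mice (median -0.66 to -0.34) and 15 to 20 in 2afl/fl mice (-0.71 to -0.40). The replicate block gave 30 and 23 members (18.5% and 15.4% of all genes in 2aOKO and 2afl/fl mice), and 30 and 25 with the pairs of each genotype as the block (19.1% and 16.3%). The share of all genes that was lower was 11.7% to 15.2% in 2aOKO and 6.6% to 18.3% in 2afl/fl mice without any 1 library, and the 2 groups fitted alone gave 24 members (19.6%) and 15 members (1.41%). Scaling to library totals moved the median of all genes by -0.12 and -0.11, and 23 and 20 members were lower where 23.8% and 19.1% of genes were; of all genes called, 66.3% and 65.4% were then lower in O4 libraries, against 46.8% and 46.1%.

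Single member values kept direction and call in 1317 alternatives, gained a call in 42, lost it in 44 and turned sign in 37, none of these a called value. Scaling to totals turned Igfbp5 (-0.078), Igfbp6 (-0.088) and Mgp (-0.11) in 2aOKO and Igfbp6 (-0.096) and Mgp (-0.084) in 2afl/fl mice, and quantile normalisation turned Igfbp5 in 2aOKO mice (-0.0032). Without the 4 libraries numbered 3, Fn1 (0.057), Fbln1 (0.031), Foxc2 (0.21) and Sparc (0.097) turned in 2afl/fl mice. Leaving out 1 library gave, in 2aOKO mice, Fn1 -0.35 to 0.032, Igfbp5 -0.027 to 0.15, Igfbp6 -0.22 to 0.38, Mgp -0.15 to 0.24 and Sparc -0.18 to 0.10, and in 2afl/fl mice Fn1 -0.28 to 0.14, Fbln1 -0.39 to 0.0067, Igfbp6 -0.14 to 0.27, Foxc2 -0.31 to 0.092, Mgp -0.11 to 0.11 and Sparc -0.16 to 0.25. The cause was not tested.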
